A study of Mus musculus with 4 samples.

Results

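The 10 genes Prdm1, Bcl6, Irf4, Pax5, Ebf1, Cd79a, Cd79b, Blnk, Btk and Sdc1 belong to the regulatory and signalling circuit in which the transcription repressor Bach2 acts in B cells. They were followed here in alveolar macrophages, phagocytes that live in the airspaces of the lung. They were chosen by name for their roles in B cells, and 12 probes on the array matched them through their RefSeq transcripts, among 19751 genes so matched in all. RNA came from mouse alveolar macrophages sorted by flow cytometry. One group was wild type (WT, pooled from 8 mice) and the other lacked Bach2 (Bach2KO, pooled from 3 mice by the series' design text and 4 by its treatment protocol). No treatment was named for either group, and the sources used here do not give the Bach2 allele, strain, age or sorting gate. The RNA of each genotype was 1 sample that was divided in 2 before amplification and Cy3 labelling, which gave 2 WT and 2 Bach2KO Agilent arrays. The 2 arrays of a genotype are therefore technical repeats. An SD given here is over 2 arrays of 1 RNA sample, and no p-value is given for the difference between genotypes.

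In B cells Bach2 binds Maf recognition elements and represses Prdm1, which encodes Blimp-1. Blimp-1 ends the B cell program and opens the plasma cell program, partly by repressing Pax5 and Bcl6, while Irf4 promotes the same step. Upstream of these factors the antigen receptor signals through the Cd79a and Cd79b chains, the kinase Syk, the adaptor Blnk and the kinase Btk. Macrophages use several of the same parts, Syk and Btk among them, below Fc receptors and other activating receptors.

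Promoter sequences are shown for 4 of the genes that differed most between the RNA samples. They are the 250 bases before the start site from RefSeq (GRCm38.p6), read 5′ to 3′ on the gene's own strand. Capitals mark the ETS core GGAAGT in Blnk and Prdm1, the GC box GGGCGG in Irf4 and Sdc1, and the TATA box TATAAA in Irf4, each on either strand. The Blnk window lies at chr19:40994222-40994471 (minus strand), that of Prdm1 at chr10:44458749-44458998 (minus strand), that of Irf4 at chr13:30748983-30749232 (plus strand) and that of Sdc1 at chr12:8771146-8771395 (plus strand).
Blnk: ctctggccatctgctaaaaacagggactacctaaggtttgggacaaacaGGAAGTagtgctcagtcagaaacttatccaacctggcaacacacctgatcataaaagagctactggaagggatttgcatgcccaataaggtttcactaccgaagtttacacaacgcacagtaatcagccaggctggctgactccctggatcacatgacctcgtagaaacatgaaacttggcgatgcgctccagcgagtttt
Prdm1: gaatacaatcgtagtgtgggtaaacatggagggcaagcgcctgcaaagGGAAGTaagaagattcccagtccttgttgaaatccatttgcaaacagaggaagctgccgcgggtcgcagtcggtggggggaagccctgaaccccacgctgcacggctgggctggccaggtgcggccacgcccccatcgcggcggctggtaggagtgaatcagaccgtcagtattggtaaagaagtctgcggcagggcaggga
Irf4: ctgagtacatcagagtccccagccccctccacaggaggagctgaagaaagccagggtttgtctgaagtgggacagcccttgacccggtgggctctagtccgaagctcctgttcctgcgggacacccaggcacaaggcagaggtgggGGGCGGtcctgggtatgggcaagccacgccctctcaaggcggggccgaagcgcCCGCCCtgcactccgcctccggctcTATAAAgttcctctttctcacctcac
Sdc1: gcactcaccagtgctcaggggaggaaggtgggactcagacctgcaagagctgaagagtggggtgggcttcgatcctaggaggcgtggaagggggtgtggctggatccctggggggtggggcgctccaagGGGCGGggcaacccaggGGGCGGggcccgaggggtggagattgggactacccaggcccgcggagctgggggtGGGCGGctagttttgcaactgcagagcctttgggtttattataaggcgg

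Windows were found for 9 of the 10 genes, 11 windows in all, and not for Cd79b. The letters TGAGTCA, the core shared by AP-1 sites and Maf recognition elements, occurred on neither strand in the windows of these 9 genes, and were held by 4.46% of the 32851 windows of the same length. The Maf core TGCTGA (16.1% of windows) and the Blimp-1 site core GTGAAAG (3.57%) were likewise not found there, and the ETS-IRF composite GGAANNGAA (6.99%) was found in a window of Bcl6. The ETS core was present for 4 of the genes (19.7% of windows), the GC box for 4 (32.7%) and the TATA box for 1 (12.4%). The ETS core, GC box and TATA box were chosen after the sequences were read. Their counts are of genes, some with more than 1 window, and so do not compare directly with the shares of windows. Whether they exceed those shares was not tested. These matches describe the letters in the windows and bear on no measured binding.

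Each array had 27125 to 27918 of its 39429 probes well above background. Signals are log2 of the processed intensity minus the array's 75th percentile, which was 1190 and 1418 for WT and 947 and 896 for Bach2KO. A gene entered if either genotype had its brightest probe well above background on both arrays, which 15122 genes met. It was called higher or lower in Bach2KO where all 4 possible Bach2KO/WT array pairs showed a change of 2-fold or more that way. Where a genotype had no array well above background, a lower bound on the fold also had to reach 2-fold. It sets the brighter genotype's mean against, on each array of the dim genotype, whichever is higher, that probe's signal or the dimmest signal well above background. The call is a rule of size for 2 RNA samples and not a test. Over these genes log2 differences had an SD of 1.16 between genotypes, against 0.26 for the 2 WT arrays and 0.21 for the 2 Bach2KO arrays. Scaling to 9 spike-in probes in place of the 75th percentile lowered each difference by 0.76, so a difference between 0 and 0.76 changes sign with it. Normexp background correction, which adds an offset of 50 to every signal, narrowed many differences of dim genes. The offset shrinks the folds of dim signals by construction. A dim gene's loss of its call with normexp therefore cannot decide whether that gene differed. All 4 arrays were on 1 slide, with the WT arrays in positions 4 and 3 and the Bach2KO arrays in positions 2 and 1, so slide position and genotype cannot be told apart. Bach2 itself had 1 probe, with log2 signals of -6.23 and -6.18 in WT and -5.03 and -8.00 in Bach2KO, and was well above background on 1 array of each genotype. The sources used here do not say whether the probe lies in the deleted part of Bach2, so it checks no label.

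Among the 10 genes, Blnk, Sdc1, Irf4 and Cd79b were called higher in Bach2KO and Prdm1 was called lower. Bcl6, Btk, Pax5 and Cd79a were measured and met neither condition, and Ebf1 was not well above background on any array. Over all measured genes 14.3% were called, 8.76% higher and 5.55% lower. Of the 10 genes 7 were well above background on all 4 arrays, and Sdc1 and Cd79b entered only through their Bach2KO signal, so those 2 could hardly be measured without differing. The calls of Blnk and Prdm1 were the same under all 17 alternative settings. Some settings could not end the call of a gene well above background on all 4 arrays. Those were the other filters, the 1.5-fold threshold, 2-fold in the array means and leaving out an array. With spike-in scaling the calls of Irf4 and Cd79b ended, and Bcl6 and Btk were called lower, so that 2 genes were higher and 3 lower.

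**Figure D1:**
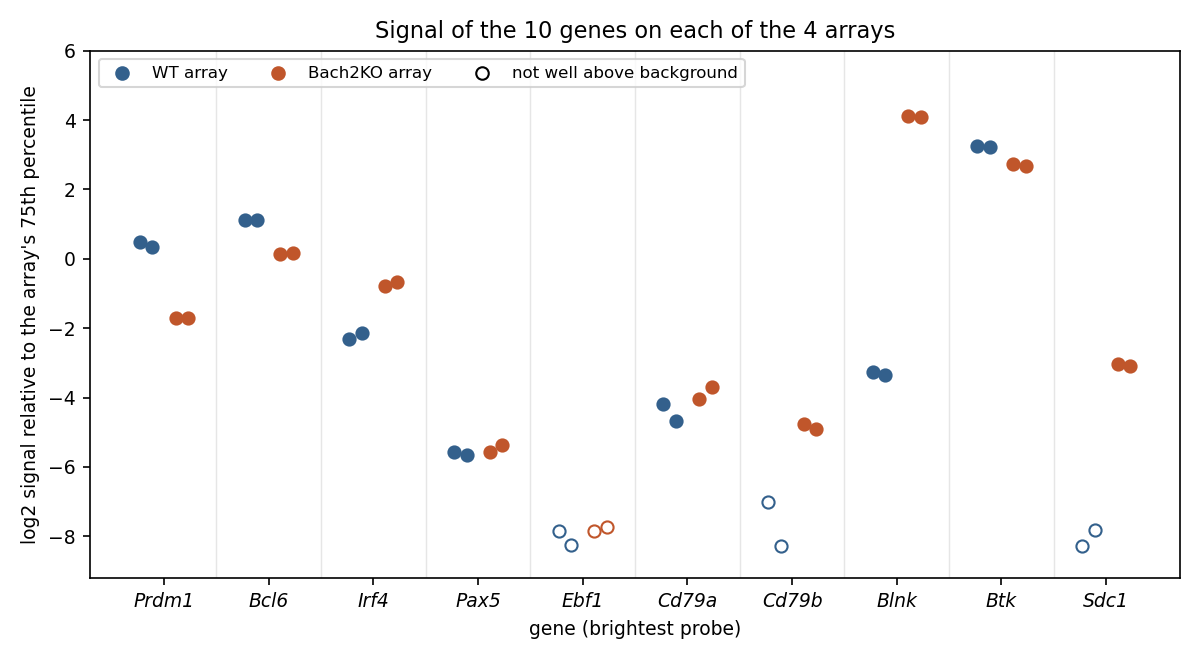
Log2 signal relative to the array's 75th percentile (vertical axis) for the brightest probe of each of the 10 genes (horizontal axis). Each point is 1 array, blue for WT and orange for Bach2KO, and open points were not well above background. Levels of different genes come from different probes and are not comparable. The Bach2KO points of Blnk lie near 4.10 and its WT points near -3.31, those of Prdm1 lie in the opposite order, and the points of Ebf1 are open on all 4 arrays.

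The transcription factors at the centre of the circuit moved in different directions. Prdm1, whose product Blimp-1 drives plasma cell differentiation, gave log2 signals of 0.48 and 0.33 for WT and -1.70 and -1.70 for Bach2KO. Both Bach2KO arrays lay below both WT arrays, with means of 0.41 ± 0.10 and -1.70 ± 0.002 (WT, Bach2KO; SD, n = 2 arrays each). The signal was 4.30-fold lower in Bach2KO, a log2 difference of -2.10 that ranged from -2.86 to -1.80 over the 17 alternatives. The gene that Bach2 represses in B cells was thus lower, not higher, in the RNA of Bach2-deficient alveolar macrophages.

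Irf4, an interferon regulatory factor of plasma cells and of macrophages responding to interleukin 4, went the other way. Its log2 signals were -2.32 and -2.15 in WT and -0.79 and -0.68 in Bach2KO, and the genotypes did not overlap. The means of -2.23 ± 0.12 and -0.73 ± 0.08 make a 2.83-fold higher signal, and the log2 differences of the 4 array pairs lay between 1.36 and 1.64. The difference was 0.75 with spike-in scaling, where Irf4 was not called, and it was not called at a 3-fold threshold.

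Bcl6, the repressor of germinal centre B cells that also restrains inflammatory genes in macrophages, gave 1.12 and 1.11 on the log2 scale in WT and 0.13 and 0.16 in Bach2KO. Both Bach2KO arrays lay below both WT arrays. The gap between arrays of 1 RNA sample was 0.01 in WT and 0.03 in Bach2KO, which does not measure the spread between RNA samples. The difference of -0.97, a 1.95-fold lower signal, fell just short of the threshold. It passed with centring on the median (-1.11), with spike-in scaling (-1.72) and at a 1.5-fold threshold. Bcl6 and Prdm1, which repress each other in B cells, were both at lower signal in Bach2KO.

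Pax5, which commits cells to the B lineage, was dim in both genotypes. Its brighter probe had processed intensities of 25.3 and 28.0 in WT and 20.0 and 21.7 in Bach2KO, and the negative-control spots of the same arrays had medians between 3.37 and 4.21. On the log2 scale these signals were -5.56, -5.66, -5.57 and -5.36, with overlapping genotypes and a difference of 0.14 that was -0.08 after quantile normalization and -0.61 with spike-in scaling. A second Pax5 probe was not well above background on any array.

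Ebf1, the partner of Pax5 in early B cell development, had intensities of 5.16 and 4.68 in WT and 4.10 and 4.20 in Bach2KO. The 95th percentile of the negative-control spots was 5.38 and 4.80 in WT and 4.32 and 4.71 in Bach2KO. Ebf1 was thus below that percentile on all 4 arrays.

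The signalling genes included the largest difference of the circuit. Blnk, the adaptor that links Syk to Btk and phospholipase C gamma below the B cell receptor, had log2 signals of -3.26 and -3.36 in WT and 4.11 and 4.09 in Bach2KO. Its intensities were 125 and 138 on the WT arrays against 16367 and 15212 on the Bach2KO arrays. The means were -3.31 ± 0.07 and 4.10 ± 0.02 (SD, n = 2 arrays), a difference of 7.40 or 169-fold. Of the 14192 genes well above background on all 4 arrays, 8 had a difference at least as high, Blnk included. The value lay between 6.65, with spike-in scaling, and 7.46 over the alternatives.

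Btk, the Tec family kinase that acts beside Blnk, had a bright probe and a second, dimmer one. The brighter probe gave log2 signals of 3.25 and 3.21 in WT and 2.74 and 2.67 in Bach2KO. The genotypes did not overlap, but the difference of -0.52, a 1.44-fold lower signal, did not reach 2-fold. The second probe differed by -0.65. With spike-in scaling the difference was -1.28 and Btk was called lower. The adaptor and the kinase that act at the same step therefore differed in opposite directions between these RNA samples.

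Both receptor chains had dim probes, that of Cd79a well above background on all 4 arrays and that of Cd79b in Bach2KO alone. Cd79a, which encodes the immunoglobulin alpha chain of the antigen receptor, had log2 signals of -4.20 and -4.69 in WT and -4.05 and -3.71 in Bach2KO. The gap between the WT arrays, -0.49, was of the order of the difference between genotypes, 0.56, which was -0.20 with spike-in scaling. Cd79b, the immunoglobulin beta chain gene, had intensities of 9.22 and 4.55 on the WT arrays, where it was not well above background, and of 34.9 and 30.0 in Bach2KO, where it was. Its log2 signals were -7.01, -8.28, -4.76 and -4.90, and the fold was at least 2.69. The call of Cd79b ended with normexp background correction, where the difference was 0.75, as well as with spike-in scaling and at 3-fold.

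Sdc1 encodes syndecan 1, a heparan sulphate proteoglycan used to mark plasma cells and also made by other cells. Its intensities were 3.79 and 6.31 on the WT arrays, in the range of the negative controls, and 115 and 106 on the Bach2KO arrays. The log2 signals were -8.29 and -7.81 in WT and -3.04 and -3.08 in Bach2KO, with no overlap. Sdc1 was not well above background in WT, so the fold was at least 9.16. The difference was 1.72 with normexp background correction, where Sdc1 was still called, against 4.99 without it.

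**Figure D2:**
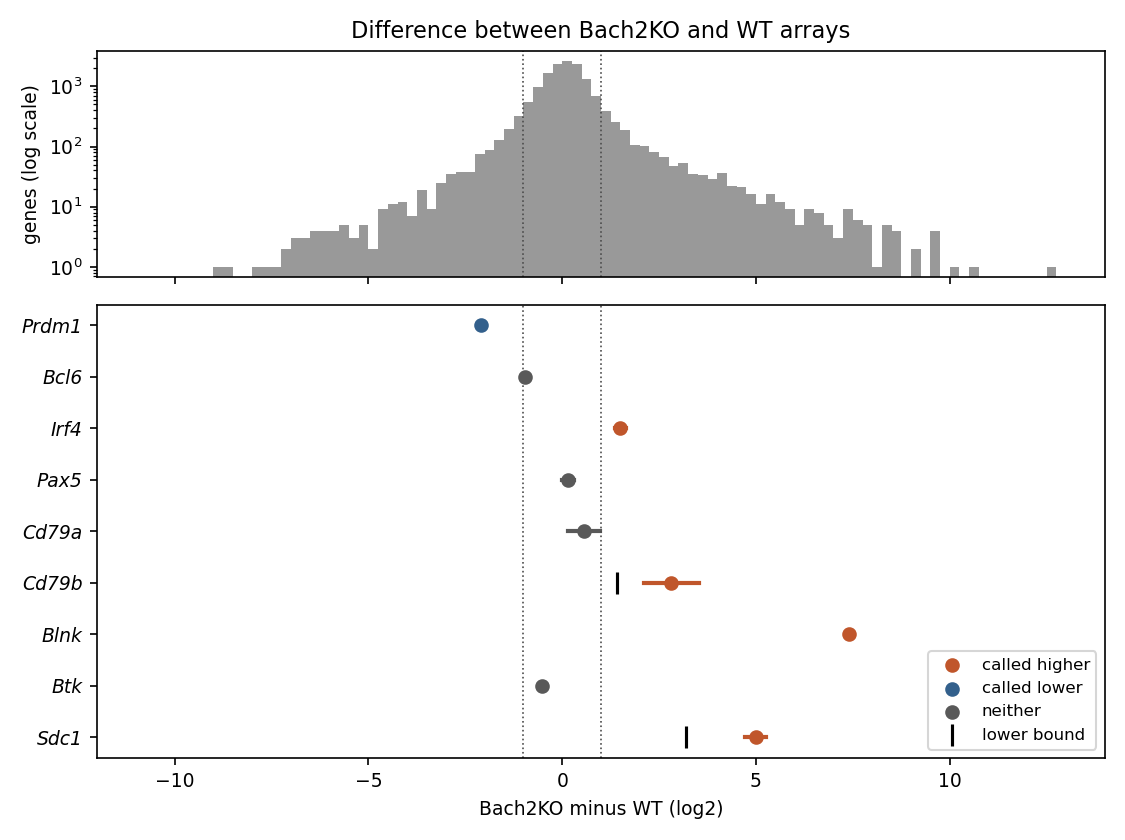
The upper panel counts the 15122 measured genes by log2 difference, Bach2KO minus WT, on a logarithmic count axis. The lower panel shows the 9 measured genes of the circuit on the same horizontal axis, with a point for the difference of the means, a line for the range over the 4 array pairs and a vertical tick for the lower bound where WT was not well above background. Dotted lines mark 2-fold. Blnk at 7.40 lies in the far right tail, and Bcl6 at -0.97 sits at the threshold.

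The genes with differences nearest to that of Blnk, among 1752 other called genes that passed background on every array, were Csf1 (7.35), Syngr1 (7.49) and Igf2r (7.52). Those nearest to Prdm1 were Adcy3 (-2.11), Hjurp (-2.10) and Rpl39l (-2.10). Likeness here is the gap between 2 differences over 4 arrays of 2 RNA samples.

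Other genes of B cell receptor signalling mostly met neither condition, with a few large exceptions. Of 31 genes, all measured, 3 were called higher and 4 lower and 24 met neither condition, with the median difference at -0.11 against 0.10 over all measured genes. Prkcb, the protein kinase C isoform that carries the signal to NF-kB, rose from -3.64 ± 0.03 to 3.34 ± 0.05 (SD, n = 2 arrays), 126-fold, and its second probe differed by 6.91. Its difference was 6.20 with normexp. Rasgrp3, a Ras exchange factor activated by diacylglycerol, was not well above background in WT and at least 36.2-fold higher, a log2 bound of 5.18 that was 2.86 with normexp. Lat2, an adaptor of mast cells, B cells and macrophages, was 45.6-fold higher, a difference of 5.51 that was 3.69 with normexp. Pik3ap1, the adaptor that recruits phosphoinositide 3-kinase, was 2.80-fold lower, and Themis2 (-1.20) was among the other lower genes. Syk, the kinase upstream of Blnk, differed by 0.37 and its product's target Plcg2 by -0.74. With spike-in scaling Syk was at -0.39, and the list had 3 higher and 13 lower genes.

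B cell co-receptor genes met neither condition for the most part. Of 14 genes 2 were higher, none lower, 11 neither and 1 not measured, with a median of 0.42 that was -0.33 with spike-in scaling. Cd40, the receptor for T cell help, was 4.62-fold higher and the lectin gene Cd72 2.49-fold higher, each well above background on 1 of the 2 WT arrays. The call of Cd40 ended with normexp background correction (0.97), and that of Cd72 with 4 alternatives in scaling or background correction, its lowest value being 0.56.

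Among 24 further transcription factors of the B lineage, 2 were higher, 1 lower, 18 neither and 3 not measured, with a median of -0.10. Id3, an inhibitor of E proteins, fell from -0.29 ± 0.02 to -3.09 ± 0.34, 6.96-fold. Bcl11a, a zinc finger repressor needed for B cell development, rose from -3.98 ± 0.04 to -1.98 ± 0.08 (a difference of 1.38 with normexp), and Mef2c was 2.49-fold higher, the latter call ending with spike-in scaling (0.56) and normexp (0.64). Spi1, which encodes the macrophage and B cell factor PU.1, differed by -0.46, Irf8 by -0.50 and Bach1, the closest relative of Bach2, by -0.50. With spike-in scaling these 3 were called lower, among 9 lower genes and 1 higher gene of the list.

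Plasma cell genes gave 6 higher, 1 lower and 15 neither among 22 measured of 24, with a median of 0.41 that was -0.35 with spike-in scaling. Slamf7, a surface receptor of plasma cells, natural killer cells and macrophages, rose from -5.42 ± 0.15 to 1.20 ± 0.03, 97.9-fold, a difference of 6.61 that was 4.93 with normexp. Fkbp11, a chaperone of secretory cells, was well above background on 1 of 2 WT arrays, and its difference was 4.52, or 2.55 with normexp. Derl3, of endoplasmic reticulum-associated degradation, was 4.75-fold higher. The other 3 higher genes were the chaperone genes Hspa5 (1.30), Creld2 (1.22) and Sdf2l1 (1.14), none of which was called with spike-in scaling. Il6ra, the interleukin 6 receptor gene, was 3.50-fold lower. The plasma cell genes Jchain and Tnfrsf17 were not well above background on any array, and Xbp1, which acts downstream of Blimp-1, differed by -0.45. With spike-in scaling the list had 3 higher and 4 lower genes.

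Genes that Blimp-1 is known to repress in B cells mostly met neither condition. Of these 14 genes, 3 of which are in the circuit itself, none was higher, 2 were lower, 10 neither and 2 not measured, with a median of -0.10. With 12 genes measured, a count of 0 higher is near the share of 8.76% over all genes. The lower genes were Id3, given above, and Ciita, the class II transactivator, which was 5.36-fold lower, a call that ended with normexp (-0.95). With spike-in scaling none was higher and 6 were lower.

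Corepressors and known B cell targets of Bcl6 numbered 19, of which 3 rose, 4 fell and 12 did neither, with a median of -0.37. The chemokine gene Ccl3, a target that Bcl6 represses, was 20.4-fold higher, and the survival gene Bcl2 4.04-fold higher, a call that ended with spike-in scaling (1.26). Irf4 and Prdm1 belong to this list as well. The other lower genes were Ccnd2 (-1.42), Cd69 (-1.14) and Cdkn1b (-1.08). With spike-in scaling 1 gene was higher and 10 were lower.

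Paralogs of the circuit genes did not follow them in every case. Of 21 genes 20 were on the array and 14 measured, 3 of them higher, 1 lower and 10 neither. Sdc4, a second syndecan gene, was like Sdc1 not well above background in WT and at least 9.90-fold higher, a log2 bound of 3.31 that was 1.75 with normexp, and Sdc3 was 2.49-fold higher, not called with spike-in scaling (0.56). Lcp2, the Blnk paralog that serves T cells and myeloid cells, had log2 signals of -0.56 and -0.45 in WT and -0.58 and -0.55 in Bach2KO, a difference of -0.06. Of the Btk paralogs, Bmx was 2.66-fold lower, with -2.32 by its other probe, whereas Tec differed by 0.95, with 1.07 and a call of higher by its other probe. Ebf3 was 4.42-fold higher, a call that ended with spike-in scaling (1.39) and normexp.

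Receptors and adaptors through which macrophages engage Syk included large differences each way. Of 15 measured genes 2 rose, 2 fell and 11 did neither, the median being 0.22. With spike-in scaling 2 were higher and 6 lower, and the median was -0.53. Clec5a was 6.82-fold (a difference of 2.77, or 1.78 with normexp) and Trem2 5.78-fold higher, both receptors that pair with ITAM-bearing adaptors. The high-affinity Fc receptor gene Fcgr1 was 12.7-fold and Lilra5 3.98-fold lower. The adaptor genes Tyrobp and Fcer1g differed by 0.22 and 0.55, and by -0.53 and -0.20 with spike-in scaling.

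**Figure D3:**
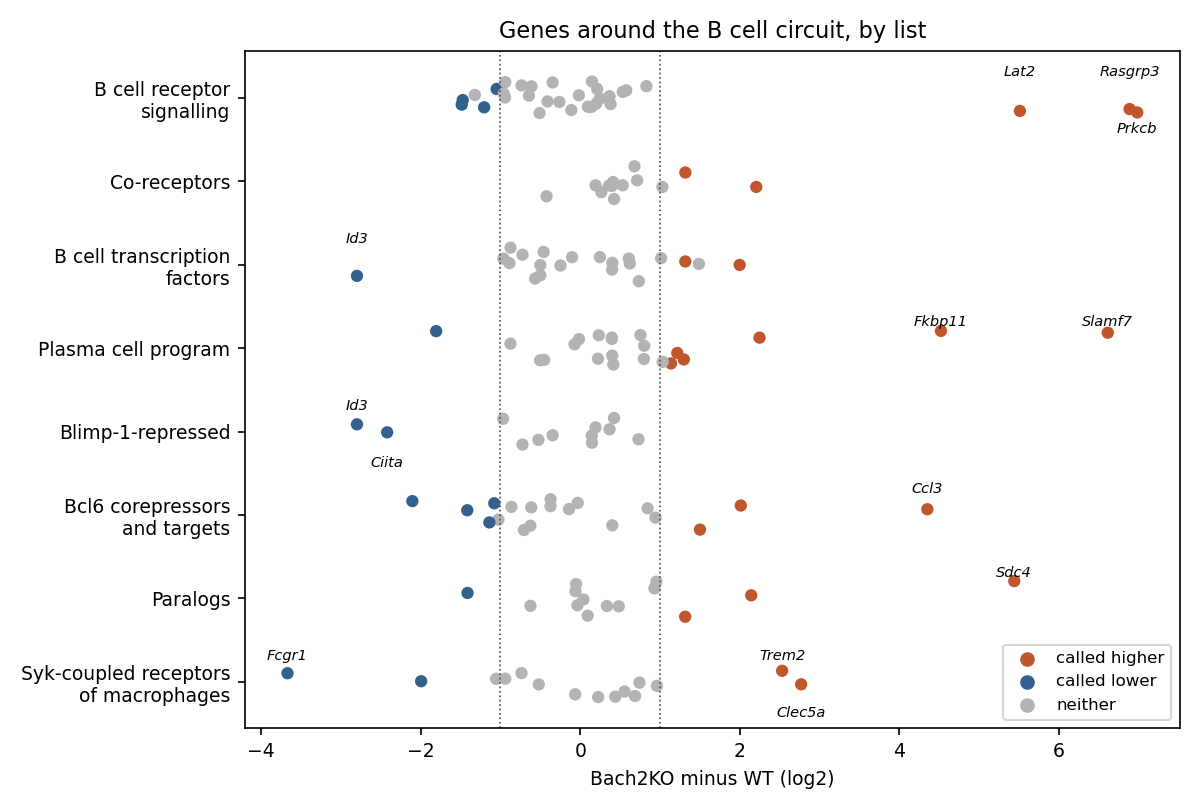
Log2 difference, Bach2KO minus WT (horizontal axis), of each measured gene in 8 lists around the circuit (rows, with random vertical scatter). Orange points were called higher, blue points lower and grey points neither, and dotted lines mark 2-fold. Most points lie between the lines, while Prkcb (6.98), Rasgrp3 (6.89), Slamf7 (6.61), Lat2 (5.51) and Sdc4 (5.44) stand far to the right.

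The defining B cell markers Ms4a1, Pax5 and Ebf1 were dim or not well above background in both genotypes. Ms4a1, which encodes CD20, passed background on 1 WT array and on no Bach2KO array. Of 19 B cell markers, 4 of which are in the circuit, 3 were higher, none lower, 13 neither and 3 not measured, with a median of 0.49 that was -0.26 with spike-in scaling. The higher ones were Cd79b, Vpreb3 (3.57-fold) and the leukocyte tetraspanin gene Cd37 (2.41-fold). The Vpreb3 call ended with normexp (0.97) and the Cd37 call with spike-in scaling (0.51), where 1 marker of the list was higher and none lower. Without circuit genes, the summed signal of the list, in units of the array's 75th percentile, was 5.36 and 5.25 in WT and 9.39 and 9.73 in Bach2KO. Much of that rise was Cd37, and without Cd37 as well the sum was 3.26 and 3.20 in WT and 4.57 and 4.58 in Bach2KO. In bulk RNA, fewer cells of a type and less RNA per cell cannot be told apart.

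Plasma cell markers included 5 higher and 1 lower gene among 8 measured of 10, with a median of 1.87, while spike-in scaling gave 4 higher, 2 lower and a median of 1.12. Sdc1, Irf4 and Prdm1 are 3 of the 10, and Slamf7, Fkbp11 and Derl3 were given above. Without the circuit genes the summed signal was 67.4 and 63.1 in WT and 50.7 and 51.1 in Bach2KO, most of it from Xbp1. Without Xbp1 as well it was 0.253 and 0.245 in WT and 3.47 and 3.48 in Bach2KO. Most of that rise was Slamf7, whose log2 signal went from -5.42 to 1.20. Mzb1 differed by 0.80 and met neither condition. Jchain and Tnfrsf17 were not well above background on any array.

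Markers of several other cell types held called genes, in both directions. Monocyte and interstitial macrophage markers had 8 higher, 2 lower and 7 neither of 17 measured, and spike-in scaling gave 4 higher and 3 lower. C1qa was 17.4-fold and C1qc 14.3-fold higher (differences of 3.49 and 3.19 with normexp), and Folr2 was at least 2.03-fold higher, a call kept in 8 of the 17 alternatives, and lost without WT array 2 (bound 0.82) and without Bach2KO array 1 (0.97). The 2 lower genes were Ccr2 (4.22-fold) and Nr4a1 (4.08-fold), both also called lower with spike-in scaling. The sums were 127 and 122 in WT and 145 and 144 in Bach2KO. Without the brightest gene, Fn1, they were 66.8 and 65.9 in WT and 71.4 and 72.2 in Bach2KO.

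T and natural killer cell markers had 5 higher, 1 lower and 10 neither of 16 measured, and spike-in scaling gave 1 higher and 1 lower. The sums were 71.4 and 71.5 in WT and 32.6 and 32.0 in Bach2KO, a fall that rests on Cd2 (3.72-fold lower). Without Cd2 they were 13.7 and 13.2 in WT and 16.8 and 16.5 in Bach2KO. Cd3d was at least 6.31-fold higher, a call that ended with normexp (1.19). Cd3g was at least 2.74-fold higher, a call that ended with normexp (0.86) and with spike-in scaling (bound 0.70), and Lat was 3.48-fold higher, not called with spike-in scaling.

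Neutrophil markers had 4 higher and 1 lower of 10 measured, against 3 and 1 with spike-in scaling. S100a8 was 13.9-fold, S100a9 at least 33.3-fold and Retnlg at least 6.05-fold higher, with normexp differences of 3.70, 2.91 and 1.37, and Mmp8 was lower (-1.14). The sums were 48.8 and 47.5 in WT and 60.9 and 61.3 in Bach2KO, most of it from Csf3r. Without Csf3r they were 6.57 and 6.45 in WT and 26.4 and 28.5 in Bach2KO. Most of that rise was S100a8, whose log2 signal went from 0.54 to 4.33. Dendritic cell markers had 1 higher of 9 measured, Bst2 (2.31-fold), while spike-in scaling gave none higher and 2 lower, and the Bst2 call also ended with centring on the median. Their sums were 66.1 and 57.9 in WT and 50.7 and 50.8 in Bach2KO, a fall that rests on Siglech. Without Siglech they were 7.33 and 7.41 in WT and 12.6 and 12.9 in Bach2KO.

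Epithelial and endothelial markers had 4 higher and 1 lower of 13 measured, against 1 and 1 with spike-in scaling. Cdh5 was 21.8-fold higher, a difference of 4.45 that was 2.53 with normexp, and Epcam was at least 95.6-fold lower, with a normexp bound of -4.27. Scgb1a1 was 3.13-fold higher, not called with spike-in scaling (0.89). Sftpb was at least 2.23-fold higher, a call that ended with spike-in scaling (bound 0.40), normexp and quantile normalization and without WT array 2 (0.95). The sums were 19.2 and 20.4 in WT and 37.8 and 37.8 in Bach2KO, a rise that rests mostly on Vwf (2.63-fold higher, not called with spike-in scaling). Without Vwf they were 10.5 and 11.1 in WT and 13.9 and 14.3 in Bach2KO. The part of all these cells in the differences of the circuit genes was not tested.

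Alveolar macrophage markers were measured for 16 of 16 genes in both genotypes, 1 of them higher, 6 lower and 9 neither, and spike-in scaling gave none higher and 6 lower. Pparg and Itgax differed by -0.07 and 0.62, the latter by -0.13 with spike-in scaling, while Siglecf was 12.3-fold, Fabp1 144-fold and Krt79 16.4-fold lower, and Ear1, whose probe may bind near-identical family members, 4.44-fold lower. The summed signal was 1616 and 1439 in WT and 1154 and 1147 in Bach2KO. Without the brightest gene, Chil3, it was 1300 and 1181 in WT and 739 and 741 in Bach2KO.

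**Figure D4:**
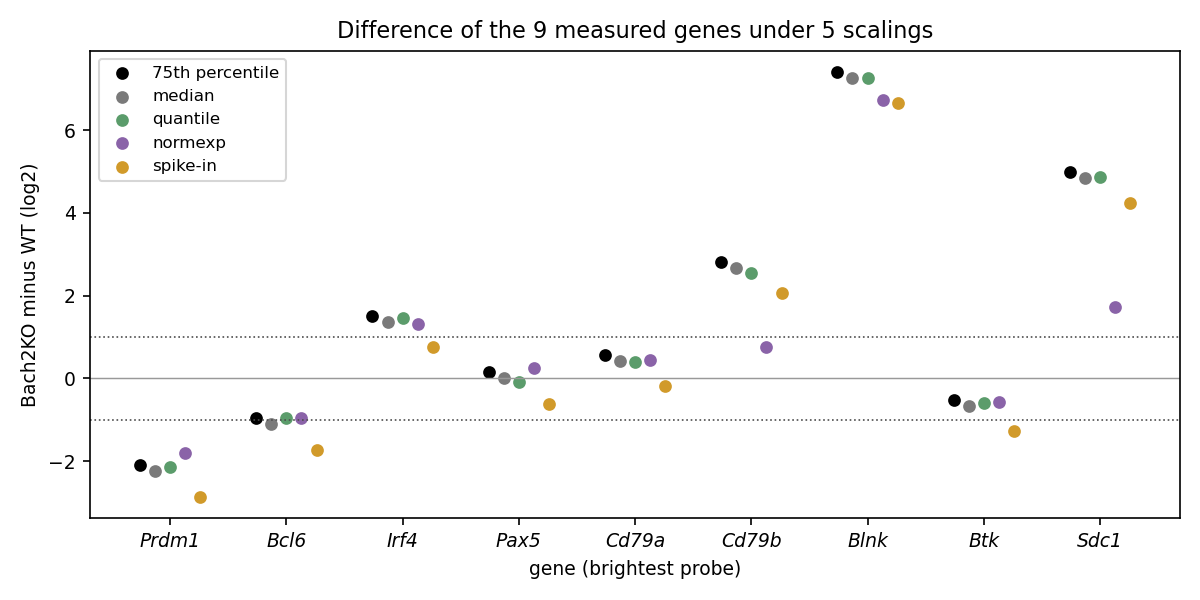
Log2 difference, Bach2KO minus WT (vertical axis), of the 9 measured circuit genes (horizontal axis) under 5 ways of scaling or background correction, 1 colour each, with dotted lines at 2-fold. Blnk stays above 6.6 and Prdm1 below -1.79 throughout, Cd79b and Sdc1 drop with normexp to 0.75 and 1.72, spike-in scaling moves Pax5 and Cd79a below 0, and quantile normalization moves Pax5 there too (-0.08).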

How the data were processed

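Gene expression was measured on 4 single-colour Agilent arrays, grouped by genotype from the sample titles. Per the file headers the intensity values come from Agilent Feature Extraction 10.7.3.1, which subtracts background and detrends each array, with no scaling between arrays; the submitters' processing notes name version 9.1. The deposited value table holds log2 values, and a comparison with the scanner files showed each column to be log2 of its own array's processed signal minus a constant (SD of the difference from 3.2e-07 to 3.5e-07, column medians -3.58, -3.67, -3.53 and -3.45), with no centring of genes. It served as an alternative.

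Control spots and 109, 120, 133 and 136 outlier spots were left out of 43020 non-control spots per array, repeat spots were averaged as log2 values, and the 75th percentile over probes, each counted once, was subtracted. No spot was saturated. Probes were named through unversioned RefSeq accessions of GRCm38.p6, the array design being on mm9, which gave 26055 of 39429 probes a symbol. The probe of highest mean signal stood for a gene. The precision of each value is limited by the 2 arrays. No test was run, and the calling rule was checked on simulated arrays. Named genes were the 10 members with all their probes, Bach2, up to 4 called genes per list by size of difference (or the 2 brightest where none was called) and the 3 nearest differences for Prdm1 and Blnk; other genes were named after their values were seen, and some genes of the lists are not reported here. The members, the 16 lists and the settings were chosen with earlier results of these data known. Motifs other than the Maf, AP-1, Blimp-1 and ETS-IRF ones were chosen after the sequences were read.

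Alternatives were centring on the median, quantile normalization, spike-in scaling, normexp on median spot signals with offset 50 (limma 3.58.1, R 4.3.3), the deposited table, other filters, outlier spots kept, thresholds of 1.5-fold and 3-fold, averaging over a gene's probes, 2-fold in the array means and leaving out each array. The percentile over all spots, in which probes spotted repeatedly count repeatedly, was added after the data were seen.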

Additional observations from a re-analysis of the deposited data

How the results depend on the processing

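The number of circuit genes called was 5 and lay between 4 and 6 in all but 2 of the 17 alternatives. It was 3 under a filter that required all 4 arrays well above background, since Sdc1 and Cd79b then leave, and 3 at a 3-fold threshold. Prdm1 and Blnk kept their calls throughout, though not every setting could have ended them. The count over all genes was 2164 (61.2% higher). It was 3802 with spike-in scaling (16.5% higher, median -0.66 over all genes), 4161 at 1.5-fold and 1108 at 3-fold. It was 2158 with the percentile over all spots, which called the same number of circuit genes. The median difference over the 9 measured circuit genes was 0.56, with or without bounds, but 0.14 under the all-array filter and -0.20 with spike-in scaling. It was 0.32 without WT array 2 and 0.80 without WT array 1, and leaving out any of the 4 arrays changed no circuit gene's call. For a called gene well above background on all 4 arrays, leaving out an array cannot end the call by construction. No paired analysis was possible because the arrays of a genotype share 1 RNA sample and no test was run. The signals of Pax5 and Cd79a were dim, and those of Ebf1, and of Cd79b and Sdc1 in WT, were not well above background. This limits what can be said of their levels, and 1 RNA sample per genotype leaves the spread between mice unknown. Causes of these changes were not tested where the setting's own construction does not show them.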
